A study of Mus musculus with 12 samples.

Results

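Imprinted genes are a class of mammalian genes for which only the copy inherited from the mother or only the copy inherited from the father is normally active, a choice held in place by DNA methylation laid down in the germ line. Many of them act on growth before birth, and 10 such growth control genes were followed here, taken by their symbols from the table of gene counts. Each of the 10 symbols matched 1 gene among the 55573 that were counted. Of these members 2, Grb10 and H19, passed the filter on low counts that left 13836 genes for testing. Gene counts add up both parental copies, so which copy was read was not measured.

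The counts came from RNA-sequencing of tumourspheres, cells grown in suspension as spheres, of the 3 mouse spindloid mammary tumour lines A1005, A1129 and A1471. All 3 lines carried the genotype MMTV-Metmt;Trp53fl/+;Cre, in which the MMTV promoter drives an activated Met receptor and 1 floxed Trp53 allele meets a Cre recombinase, and each line was grown from 1 tumour. Spheres of each line were kept for 24 h with the vehicle DMSO, the Met kinase inhibitor Crizotinib, the FGF receptor kinase inhibitor PD173074 or the Combination of both, with 1 library for each line and treatment. The sphere medium of all 12 libraries held insulin, EGF and bFGF, and the age of the mice was not given in the sources used here. A treatment therefore had n = 3 libraries from 3 lines, and a line had n = 4 libraries from 4 treatments.

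The libraries held 13031492 to 17750476 counts each, so that 3 counts, the limit that a count of 0 allows, stood for 0.167 to 0.234 CPM (counts scaled to a common library size of 1000000) in a library. Intervals and limits here cover counting error only. Of 8 mesenchymal markers, 7 were read in every line, and their summed level was 3373 to 9760 CPM, against 7.54 to 53.4 CPM for 9 markers of mammary epithelium, of which Krt5 and Cldn7 were at 0 in all 12 libraries. The inhibitors' read-out genes Spry4, Dusp6, Etv4 and Ccnd1 were lower with the Combination than with DMSO by log2 fold changes between −4.74 and −5.98, all past the threshold in edgeR's quasi-likelihood test, with adjusted p-values of at most 0.00343. With PD173074 alone the changes were −0.89 to −1.11 and with Crizotinib alone 0.03 to 0.30, none past the threshold in that fit. With the cell line as a replicate block, 3 of the 4 were called with PD173074, where 2.14% of all genes were.

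The members fall into maternally and paternally expressed genes. H19 is a long non-coding RNA made from the maternal copy and the host of the microRNA miR-675. Grb10, an adaptor protein that binds the insulin and IGF1 receptors and dampens their signal, Cdkn1c, an inhibitor of cyclin-dependent kinases, and Meg3, a long non-coding RNA, are likewise known as maternally expressed restraints on growth in most tissues. Igf2, the fetal growth factor, Dlk1, a membrane protein of the Notch ligand type, Peg3, Plagl1 and Ndn, which act largely in the nucleus, and Mest, a hydrolase-like protein, are read from the paternal copy. Igf2 and H19 are neighbours on chromosome 7 and share enhancers, and Dlk1 and Meg3 are neighbours on chromosome 12.

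Most of the 10 genes were not read in these spheres. Under 10 counts in every library were 7 of the 10, and so were 40260 of the 55573 genes of the table. Igf2 (ENSMUSG00000048583), Dlk1 (ENSMUSG00000040856) and Ndn (ENSMUSG00000033585) had 0 counts in all 12 libraries, which allows a level of up to 0.0169 CPM over the 178099197 counts of the series. Meg3 (ENSMUSG00000021268) had 1 count in all, in A1129 with DMSO. Peg3 (ENSMUSG00000002265) had 1 count, in A1129 with Crizotinib, and Mest (ENSMUSG00000051855) had 1 count each in A1129 and A1471 with the Combination. These 6 genes were at or below the limit of 3 counts in each library, so no line or treatment difference was detectable for them at this depth. Of the exon bases of Igf2, 64.5% lie in exons of other annotated genes, and of those of Mest 23.1%, where a counter may discard reads as ambiguous. Dlk1, Peg3 and Ndn shared none of their exon bases with another gene.

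Cdkn1c (ENSMUSG00000037664, mm10 chr7:143458339-143461050, minus strand) was read at the edge of detection. Its counts in A1005, A1129 and A1471 were 8, 3 and 1 with DMSO, 8, 1 and 3 with Crizotinib, 9, 3 and 4 with PD173074, and 6, 0 and 9 with the Combination. No library went past 9 counts. The Combination library of A1471 was 9.83-fold its DMSO library on 9 counts against 1 (exact 95% interval 1.36 to 431), while in A1005 the ratio was 0.534 (0.153 to 1.76). Summed over 4 libraries, Cdkn1c had 31 counts in A1005, 7 in A1129 and 17 in A1471, and the level in A1005 was 4.31-fold that in A1129 (exact 95% interval 1.86 to 11.6). Of its exon bases, 30.7% are shared with another annotated gene.

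The other 3 members, Grb10, H19 and Plagl1, reached at least 10 counts in a library in 1 or 2 lines only, as did 19.02% of the 15313 genes of the table that reached this level in any line. Grb10 (ENSMUSG00000020176) spans mm10 chr11:11930508-12038683 on the minus strand, and no other annotated gene overlaps it. In DMSO its counts were 706 in A1005, 0 in A1129 and 161 in A1471, and with Crizotinib 722, 4 and 116. With PD173074 they were 1137, 1 and 302, and with the Combination 1258, 0 and 355. The 4 libraries of A1005 were above all of A1471, and those of A1471 were above all of A1129, with no overlap, as was the case between the 3 lines in CPM for 8.02% of all genes tested.

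Over its 4 libraries, Grb10 was at 60.8 ± 10.2 CPM in A1005, 16.9 ± 8.67 CPM in A1471 and 0.0839 ± 0.125 CPM in A1129 (mean ± SD, n = 4). The pooled level in A1005 was 744-fold that in A1129 (exact 95% interval 318 to 2291) and 3.68-fold that in A1471 (3.42 to 3.95). With line and treatment as terms of 1 edgeR fit, the log2 fold change was −9.41 (SE 0.46, adjusted p = 9.62e-08) for A1129 against A1005, −1.95 (SE 0.25, adjusted p = 9.29e-05) for A1471 against A1005 and 7.46 (SE 0.49, adjusted p = 2.68e-06) for A1471 against A1129. The fitted values against A1129 rest on 5 counts in that line and depend on the prior count. Grb10 passed the filter on low counts through A1005 and A1471 alone, so that a difference from A1129 followed from its being tested. Each line is 1 line from 1 tumour, so these p-values compare the libraries of these lines and not tumour types.

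Windows at both RefSeq starts of Grb10 are shown, since CG dinucleotides, in capitals, are the sites of DNA methylation. Methylation was not measured, and whether these windows hold the imprint of Grb10 was not looked at. The annotated span of the gene begins upstream of both windows, at 12038683 on the minus strand. The 300-base windows, from 250 bases before a start to 50 after it, are from RefSeq on GRCm38.p6 (the build also called mm10), minus strand, at chr11:12037371-12037670 and chr11:12027922-12028221.
Grb10, upstream start: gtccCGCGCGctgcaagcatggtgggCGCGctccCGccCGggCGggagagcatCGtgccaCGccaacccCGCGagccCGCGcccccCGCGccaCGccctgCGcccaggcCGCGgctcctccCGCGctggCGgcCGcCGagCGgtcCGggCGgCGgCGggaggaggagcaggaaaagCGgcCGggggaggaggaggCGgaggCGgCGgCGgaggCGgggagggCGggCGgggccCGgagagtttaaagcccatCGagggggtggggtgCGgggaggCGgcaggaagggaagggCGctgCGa
Grb10, downstream start: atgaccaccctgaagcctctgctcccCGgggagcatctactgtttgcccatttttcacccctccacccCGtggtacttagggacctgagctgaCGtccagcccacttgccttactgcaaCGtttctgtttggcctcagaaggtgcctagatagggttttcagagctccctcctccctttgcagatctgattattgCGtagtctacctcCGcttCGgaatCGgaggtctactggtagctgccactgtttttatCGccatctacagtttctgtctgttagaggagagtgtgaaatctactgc
The upstream window holds 45 CG dinucleotides, more than 98.1% of the 32851 windows of this length, and the downstream window holds 9, where the median window holds 7. Neither window holds the AP-1 motif TGANTCA or the FoxO motif GTAAACA on either strand, which are found in 7.81% and 3.65% of all windows.

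H19 (ENSMUSG00000000031, mm10 chr7:142575529-142578143, minus strand) was read in A1129, the line lowest in Grb10. Its counts in A1005, A1129 and A1471 were 0, 74 and 0 with DMSO and 0, 59 and 0 with Crizotinib. With PD173074 they were 5, 65 and 1, and with the Combination 4, 173 and 1. All 4 libraries of A1129 lay above the other 8, and 1 line lay above the other 8 libraries in CPM for 23.5% of all genes tested. Here both of the other lines were at 0 without PD173074.

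H19 was at 6.06 ± 3.21 CPM in A1129, 0.131 ± 0.155 CPM in A1005 and 0.0367 ± 0.0424 CPM in A1471 (mean ± SD, n = 4). The pooled level in A1129 was 42.4-fold that in A1005 (exact 95% interval 22.1 to 93.4) and 171-fold that in A1471 (47.1 to 1420). The edgeR log2 fold change was 5.40 (SE 0.48, adjusted p = 5.65e-06) for A1129 against A1005 and −7.10 (SE 0.59, adjusted p = 1.17e-05) for A1471 against A1129, and A1471 and A1005 did not differ past the threshold (−1.70, SE 1.03, adjusted p = 0.184). H19 passed the filter on low counts through A1129 alone, so that a difference from the other lines followed from its being tested. Its neighbour Igf2, whose start lies 88.7 kb away, was at 0 in the same libraries, as were Igf2os, Ins2 and Nctc1 of that cluster.

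Within its first exon H19 carries the precursor of miR-675, whose own row had 0 counts, and mature microRNAs were not measured. Its mature arms are shown because they are a product by which the H19 transcript is known to act on other messages. The sequences are from RefSeq on GRCm38.p6, minus strand, chr7:142577112-142577133 for the 5p arm and chr7:142577078-142577099 for the 3p arm, with the seed, bases 2 to 8, in capitals.
miR-675-5p: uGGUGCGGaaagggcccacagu
miR-675-3p: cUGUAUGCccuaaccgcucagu
The arms have different seeds. Together with 2 further small annotated genes, the precursor covers 9.15% of the exon bases of H19.

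Plagl1 (ENSMUSG00000019817, mm10 chr10:13060504-13131694, plus strand), a zinc finger transcription factor, was read in A1129 alone. It had 4 counts with DMSO, 9 with Crizotinib, 21 with PD173074 and 25 with the Combination in that line, and 0 in all 8 libraries of A1005 and A1471. The level in A1129, 0.982 ± 0.653 CPM (mean ± SD, n = 4), was at least 20.2-fold higher than in A1005 and at least 18.2-fold higher than in A1471, taking 3 counts over the 4 libraries of each of those lines as the floor. Plagl1 did not pass the filter on low counts and was not part of the tests.

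The RefSeq promoter window of Plagl1 is shown for the same reason as those of Grb10, from GRCm38.p6, plus strand, at chr10:13090582-13090881, with CG dinucleotides in capitals. The annotated span of the gene begins upstream of this window, at 13060504.
Plagl1: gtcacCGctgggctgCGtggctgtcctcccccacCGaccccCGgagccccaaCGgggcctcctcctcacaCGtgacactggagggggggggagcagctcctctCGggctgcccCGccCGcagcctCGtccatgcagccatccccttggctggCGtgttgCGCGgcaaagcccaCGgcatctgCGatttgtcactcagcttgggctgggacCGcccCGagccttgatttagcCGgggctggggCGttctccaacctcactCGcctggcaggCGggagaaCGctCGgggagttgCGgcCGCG
It holds 26 CG dinucleotides, more than 83.1% of all windows. In the 15 windows of the 8 members that have one, the AP-1 motif and the YY1 motif AAGATGGC, searched on both strands, had 0 matches, and the FoxO motif had 1, in Dlk1, which was not read. The YY1 motif is in 2.75% of all windows.

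Per kilobase of exon, the 3 members that reached 10 counts in a library ran Grb10, then H19, then Plagl1, each in its highest line. Levels in CPM per kilobase of exon (RPKM) were 6.69 ± 1.12 for Grb10 in A1005, 2.47 ± 1.31 for H19 in A1129 and 0.126 ± 0.0835 for Plagl1 in A1129 (mean ± SD, n = 4). Cdkn1c, with at most 9 counts in a library, was at 0.251 ± 0.0612 RPKM in A1005, above the mean of Plagl1. Grb10 in A1471, at 1.86 ± 0.954 RPKM, did not differ from H19 in A1129 beyond the spread of the 4 libraries. Thus A1129 was the line without Grb10 and the line with H19 and Plagl1, as the plot of CPM by treatment shows.

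**Figure D1:**
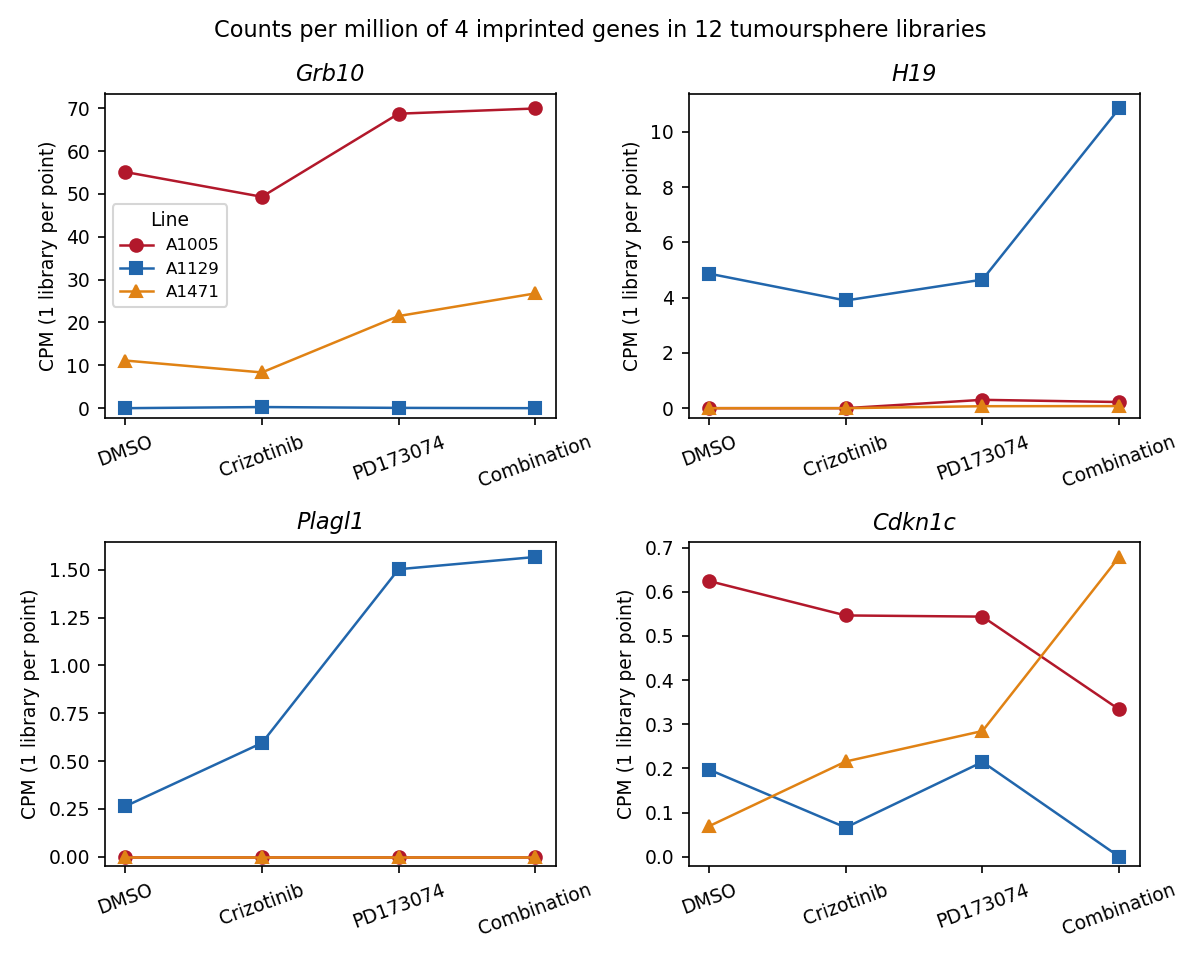
Level of Grb10, H19, Plagl1 and Cdkn1c (y axis, CPM, a separate scale in each panel) in each library by treatment (x axis), with 1 point a library and lines joining the libraries of a cell line. Grb10 lies between 49.3 and 69.9 CPM in A1005 and at no more than 0.264 CPM in A1129, H19 and Plagl1 are read in A1129, and Cdkn1c stays at 0.679 CPM or below.

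Markers of other cell types also differed between the lines. Ptprc, the pan-leukocyte antigen CD45, had 174 to 339 counts a library in A1005 and at most 2 in A1129 and A1471, while Adgre1 and Cd3e had at most 2 counts in any library. Cd68, a macrophage marker, had 227 to 439 counts in A1005, 64 to 173 in A1129 and 62 to 109 in A1471. In A1471, where Grb10 was also read, Ptprc was at or near 0 and Cd68 was read, and the part of leukocytes in the level of Grb10 was not tested. In A1129 the muscle stem cell factor Pax7 had 11 to 42 counts, with Myod1, Myog, Des and Actc1 at 0. Des, another muscle gene, had 24 to 66 counts in A1005 and at most 2 in A1471. The part of muscle lineage cells in the levels of H19 and Plagl1 was not tested. In bulk RNA, fewer cells that read a gene and less RNA per cell cannot be told apart.

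To separate the line from the treatment, the variation of each gene's log2 CPM over the 12 libraries was divided into a part between lines, a part between treatments and a remainder. Lines held 97.6% of the sum of squares of Grb10 and treatments 0.453%, and for H19 the shares were 93.9% and 4.30%. Over all 13836 genes tested, the median share was 52.1% for lines and 27.8% for treatments. A larger line share than that of Grb10 was found in 2.23% of genes, and a larger one than that of H19 in 6.64%. In edgeR's test for any difference between lines, both members tested were past the threshold, with adjusted p = 1.85e-07 for Grb10 and 1.64e-06 for H19, where 73.9% of all genes were. Grb10 passed the filter on low counts through A1005 and A1471 alone and H19 through A1129 alone, so a line difference followed from their being tested, and these p-values and shares are a description and no support for one. Of all genes tested, 57.8% were called for A1129 against A1005, 57.7% for A1471 against A1005 and 45.9% for A1471 against A1129. A line call alone thus set neither member apart. For A1129 against A1005, 0.665% of genes had a larger absolute log2 fold change than Grb10 and 3.73% a larger one than H19. These percentages were 11.9% and 13.5% for A1471 against A1005, and 0.571% and 0.694% for A1471 against A1129. The filter bears on these ranks in the same way, so they too are a description and no support.

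**Figure D2:**
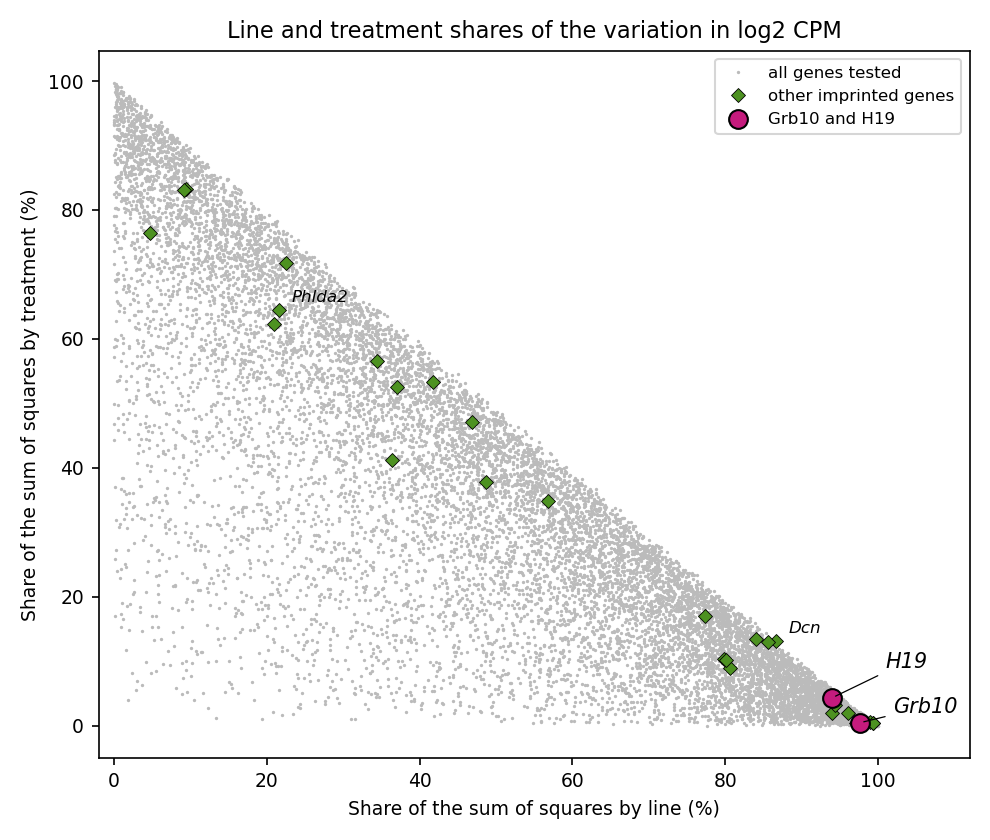
Share of each gene's sum of squares in log2 CPM that lies between lines (x axis, %) and between treatments (y axis, %), for all 13836 genes tested (grey points), 29 other imprinted genes (green diamonds) and Grb10 and H19 (large circles). Grb10, at 97.6% by line, and H19, at 93.9%, sit in the lower right corner, while Phlda2, at 64.5% by treatment, is in the upper left part.

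The genes whose log2 CPM was most like that of Grb10 over the 12 libraries were Zfp799 (Pearson's r = 0.991), Cdc42ep5 (r = 0.981) and Ece1 (r = 0.981). For H19 they were Dmrta1 (r = 0.990), Gypc (r = 0.980) and Nid2 (r = 0.980). The 4 libraries of a line share that line's level, so these values describe a common order of lines over 12 libraries rather than 12 independent samples.

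Treatment differences were then taken over the 3 lines. The study's methods state an unpaired analysis, and in the unpaired edgeR fit 0 of the 2 members tested were called with the Combination against DMSO, where 14.4% of all genes were. Neither had an unadjusted p under 0.05, and in DESeq2, which gave no p-value for H19, Grb10 was not called (adjusted p = 0.913), where 21.9% of all genes were. Grb10 was at 32.2 ± 35.3 CPM with the Combination and 22.1 ± 29.1 CPM with DMSO (mean ± SD, n = 3), a log2 fold change of 0.55 (SE 2.32, adjusted p = 0.916). H19 was at 3.71 ± 6.17 CPM and 1.62 ± 2.81 CPM, a log2 fold change of 1.19 (SE 2.54, adjusted p = 0.820). The differences were thus smaller than the spread between lines, which exceeds each group's mean.

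With the cell line as a replicate block, which takes out the level of each line, the same comparison gave a log2 fold change of 0.78 (SE 0.34, adjusted p = 0.0744) for Grb10 and 1.28 (SE 0.54, adjusted p = 0.0655) for H19. Both had an unadjusted p under 0.05 there, and both stayed above the threshold after adjustment, in a fit that called 54.8% of all genes.

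The members passed the threshold in 1 comparison, the Combination against Crizotinib, and with the replicate block only. The log2 fold change was 0.95 (SE 0.35, adjusted p = 0.0400) for Grb10 and 1.59 (SE 0.55, adjusted p = 0.0317) for H19, in a fit that called 53.4% of all genes tested. Genes called higher were 27.4% of all genes tested. H19 had 173 counts with the Combination and 59 with Crizotinib in A1129, against 4 and 0 in A1005 and 1 and 0 in A1471. Its value thus rests mainly on the A1129 libraries and is not replicated across lines. Grb10 had 0 and 4 counts in A1129, so that it was higher in A1005 and A1471 only. Without the block 13.2% of all genes and 0 of the 2 members were called, at adjusted p-values of 0.885 for Grb10 and 0.769 for H19. With each line left out in turn, both genes were above the threshold without A1471, at a blocked value of 0.34 (adjusted p = 0.571) for Grb10 and 1.59 (adjusted p = 0.0877) for H19. Without A1005 H19 was called at 1.504 (adjusted p = 0.0196) and Grb10, at 1.39, was not (adjusted p = 0.0883). Without A1129 Grb10 was called at 1.06 (adjusted p = 0.0257) and H19 was no longer tested. Each of these fits holds fewer libraries than the whole.

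With PD173074 against DMSO the blocked log2 fold change was 0.62 (SE 0.34, adjusted p = 0.417) for Grb10 and 0.42 (SE 0.57, adjusted p = 0.784) for H19, in a fit that called 2.14% of all genes. Without the block 0 of 13836 genes were called, with 307 at an unadjusted p under 0.05, and DESeq2 called 17 (0.123%). With Crizotinib against DMSO the blocked values were −0.17 (SE 0.35) for Grb10 and −0.31 (SE 0.57) for H19, and edgeR called 0 genes with or without the block, with 258 and 18 at an unadjusted p under 0.05 and 1 gene (0.00723%) called by DESeq2. The Combination against PD173074 gave 0.16 (SE 0.33, adjusted p = 0.729) for Grb10 and 0.86 (SE 0.55, adjusted p = 0.241) for H19 with the block, where 39.8% of genes were called and 4.77% without it. The Combination's difference from adding up the single inhibitors' log2 changes was 0.33 (SE 0.48) for Grb10 and 1.17 (SE 0.79) for H19 on the log2 scale with the block, at adjusted p-values of 0.671 and 0.334, where 16.2% of genes were called and 0.918% without it. For any treatment difference with the line as a term, 0 of the 2 members were called by edgeR, at adjusted p = 0.0945 for Grb10 and 0.1004 for H19, and 48.1% of all genes were.

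Within a line there is 1 library for each treatment and so no replicate, and ratios of 2 libraries are given with their counting intervals. Grb10 was 1.27-fold its DMSO level with the Combination in A1005 (exact 95% interval 1.16 to 1.39) and 2.41-fold in A1471 (1.99 to 2.92). With PD173074 alone it was 1.25-fold in A1005 (1.13 to 1.37) and 1.93-fold in A1471 (1.59 to 2.36). In both lines Grb10 was above DMSO in each library that had PD173074 and below it with Crizotinib alone, at 0.895-fold in A1005 (0.806 to 0.994) and 0.750-fold in A1471 (0.586 to 0.958). The ratios in A1471 were farther from 1 than those in A1005, and whether the lines differ in response could not be tested with 1 library each.

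In A1129, H19 was 2.23-fold its DMSO level with the Combination (exact 95% interval 1.69 to 2.97), and its ratio was 0.801 with Crizotinib (0.559 to 1.14) and 0.956 with PD173074 (0.674 to 1.35). Both single inhibitors thus left it within counting error of DMSO. Plagl1 had another pattern in the same line, with 5.71-fold its DMSO level with PD173074 (1.93 to 22.9) and 5.96-fold with the Combination (2.06 to 23.5), on 4 counts with DMSO. With Crizotinib the ratio of Plagl1 was 2.26 (0.631 to 10.04). These ratios compare libraries, and the spread between cultures of 1 line was not measured.

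**Figure D3:**
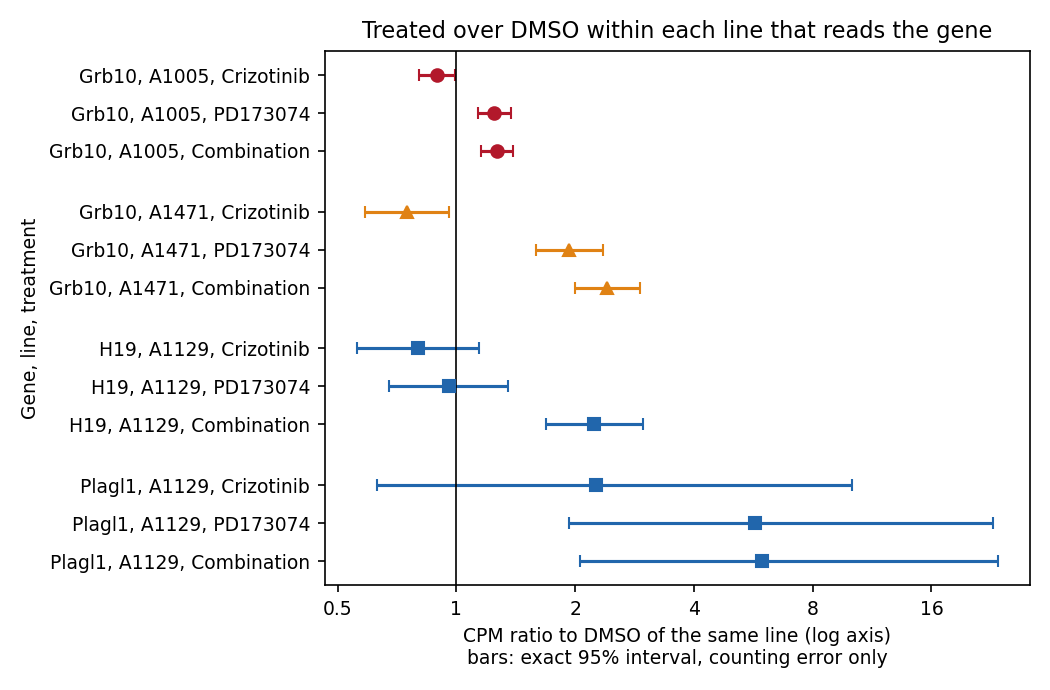
Ratio of CPM in a treated library to the DMSO library of the same line (x axis, log scale) for Grb10 in A1005 and A1471 and for H19 and Plagl1 in A1129 (y axis), with bars for the exact 95% interval from counting error only. The Combination lies above 1 in all 4 rows of gene and line, from 1.27 for Grb10 in A1005 to 5.96 for Plagl1 in A1129, and Crizotinib lies below 1 for Grb10.

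Under 10 counts in every library were 29 of 63 other imprinted genes, against 40260 of all 55573 genes. Most of those that were read were read in every line. Of 63 other imprinted genes, 34 had at least 10 counts in some library, 22 of them in all 3 lines and 12 in 1 or 2 lines, a share of 35.3% in 1 or 2 lines against 19.02% of all genes read at this level. In the cluster of Cdkn1c, Kcnq1ot1, the long antisense RNA known to silence that cluster in cis, had 53 to 74 counts a library in A1005, 135 to 213 in A1129 and 0 in all 4 libraries of A1471. Slc22a18, a transporter gene, had 21 to 48 counts in A1005, 0 in A1129 and 1 to 7 in A1471, and Kcnq1, a potassium channel gene in which Kcnq1ot1 lies, had at most 6, 0 and 21. Cd81, Nap1l4 and Osbpl5 at the edges of the cluster were read in all 12 libraries. Whether the counter used strand is not given in the sources used here, so Kcnq1 and Kcnq1ot1 are uncertain.

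Around the unread members the listed imprinted neighbours were mostly unread. Beside Dlk1 and Meg3, Rtl1 had 5 to 15 counts in A1129, at most 6 in A1005 and 0 in A1471, Rian and Mirg had at most 3 and Dio3 0. Beside Peg3, Zim1 and Zfp264 were at 0 and Usp29 had 1 count in all. Beside Ndn, Magel2, Peg12, Snrpn and Snurf were at 0 in all 12 libraries and Mkrn3 and Snhg14 had at most 3 counts, while Ube3a, a ubiquitin ligase gene imprinted in neurons, had 758 to 2800 counts. Beside Mest, Copg2 had 560 to 1236 counts and Klf14 0. Beside Grb10, Ddc had at most 1 count and Cobl at most 2, and beside Plagl1, Phactr2 had at most 1. Grb10 and Plagl1 were thus read where these listed imprinted genes were not, and other genes nearby were not looked at.

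Other clusters held line differences as large as those of the members. Peg10 and Sgce, which start 0.099 kb apart on chromosome 6, had 152 to 586 and 273 to 660 counts in A1005 and at most 1 count in any library of A1129 and A1471. Their neighbour Ppp1r9a had 203 to 417 counts in A1129, 0 in A1005 and at most 7 in A1471. Airn, the antisense RNA of the Igf2r cluster, had 66 to 133 counts in A1129, 0 in A1005 and at most 2 in A1471, and Nespas of the Gnas cluster had 7 to 24 counts in A1129 and 0 elsewhere. Of the 29 other imprinted genes tested, 26 (89.7%) were called for any line difference, against 73.9% of all genes, and 17 (58.6%) for any treatment difference, against 48.1%.

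**Figure D4:**
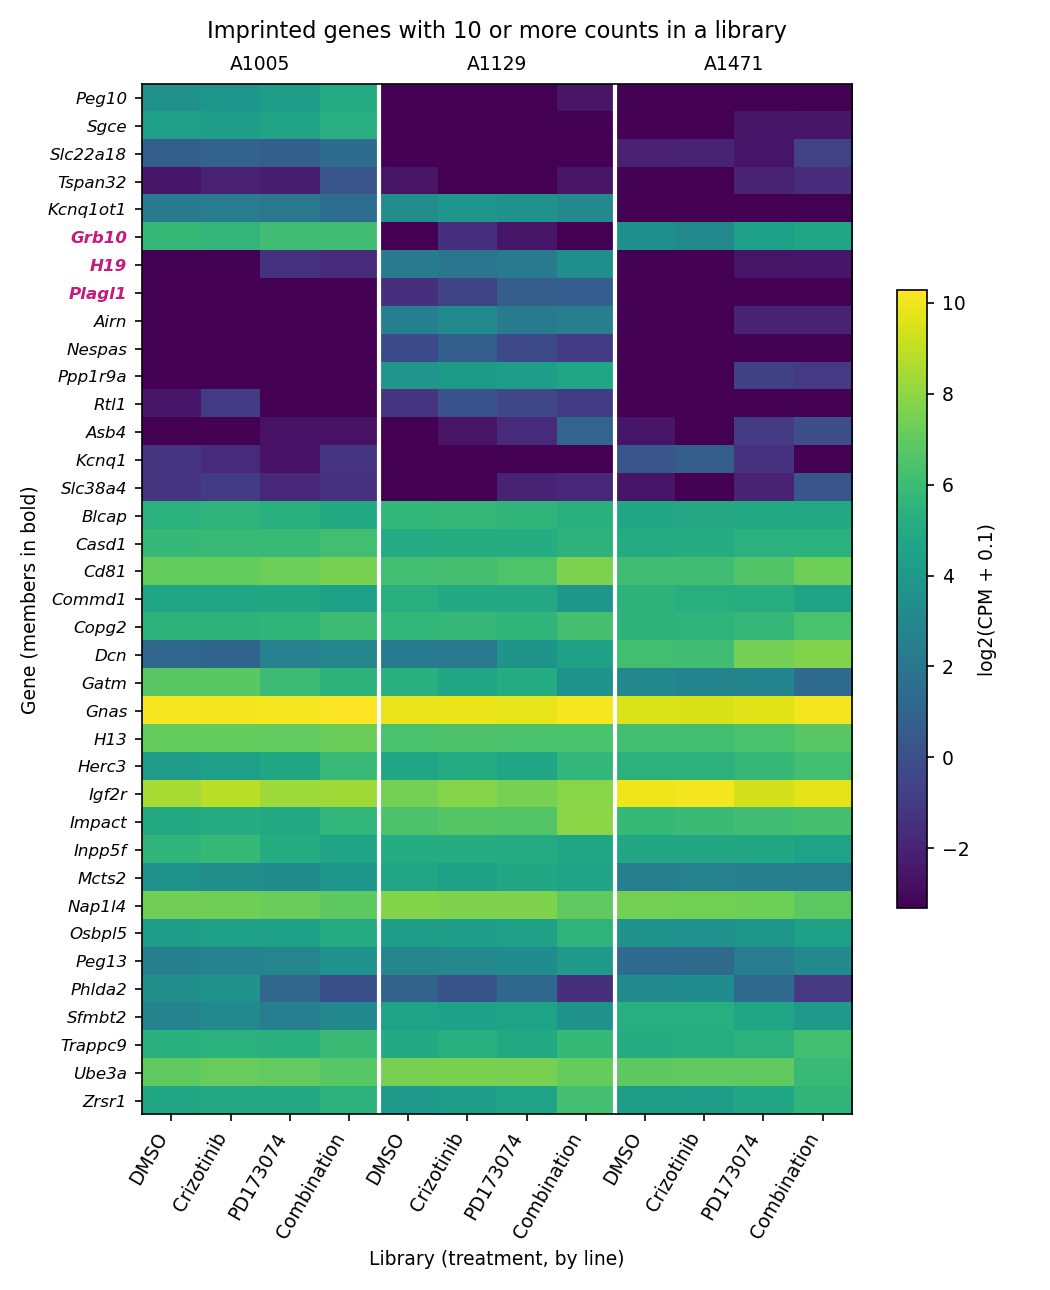
Level of the 3 members (bold) and the 34 other imprinted genes that had at least 10 counts in a library, as log2(CPM + 0.1) in colour (rows are genes, columns the 12 libraries by line and treatment). The upper rows hold genes read in 1 or 2 lines, with Grb10 dark in A1129 and H19 and Plagl1 dark outside it, and the lower 22 rows hold genes read in all 3 lines.

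With the Combination against DMSO, 5 of the 29 other imprinted genes tested (17.2%, against 14.4% of all genes) were called in the unpaired edgeR fit, 3 higher and 2 lower. The median log2 fold change was 0.33 over the 29 and 0.02 over all genes. Phlda2, a placental growth restraint in the cluster of Cdkn1c, had 141, 29 and 136 counts in A1005, A1129 and A1471 with DMSO and 16, 4 and 5 with the Combination. It was lower in each line, with a log2 fold change of −3.85 (SE 0.96, adjusted p = 0.0260). Zrsr1, a splicing factor gene (log2 fold change 1.37, SE 0.30, adjusted p = 0.0164), and Trappc9, of a vesicle tethering complex (0.85, SE 0.17, adjusted p = 0.0111), were higher. With the replicate block 12 were called higher and 6 lower (62.1%, against 54.8% of all genes), and Peg10, not called without the block (adjusted p = 0.826), was then called at 1.48 (SE 0.33, adjusted p = 0.00754).

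Grb10 acts on the insulin and IGF1 receptors, and these were read in all libraries of every line. Igf1r was at 65.6 ± 5.71 CPM in A1005, 103 ± 14.7 CPM in A1129 and 71.4 ± 13.1 CPM in A1471, and Insr at 40.1 ± 4.11, 64.9 ± 13.2 and 64.0 ± 6.95 CPM (mean ± SD, n = 4). A1129, the line without Grb10, was above A1005 for Igf1r by a log2 fold change of 0.64 (SE 0.13, edgeR adjusted p = 0.00156). Insr was above A1005 by 0.68 in A1129 (SE 0.08, adjusted p = 5.97e-05) and by 0.67 in A1471 (SE 0.08, adjusted p = 7.66e-05), where Grb10 was read. Of all genes, 57.8% were called for A1129 against A1005, and the part of Grb10 in these levels was not tested. Igf2r, the imprinted receptor that clears Igf2, was at 367 ± 73.4 CPM in A1005, 204 ± 29.3 CPM in A1129 and 880 ± 157 CPM in A1471. It was lower in A1129 than in A1005 by a log2 fold change of −0.84 (SE 0.12, edgeR adjusted p = 0.000141). In A1471 it was above A1005 by 1.26 (SE 0.12, adjusted p = 1.01e-05) and above A1129 by 2.10 (SE 0.12, adjusted p = 1.17e-06). Of all genes, 57.7% were called for A1471 against A1005 and 45.9% for A1471 against A1129. Airn was read in A1129, with 0 counts in A1005 and at most 2 in A1471, and its part in the level of Igf2r was not tested. Of the ligands, Igf1 had 16 counts in A1129 with the Combination and at most 3 in any other library.

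Of the 5 IGF and insulin receptor and adaptor genes tested in a list of 7, 1 was called with the Combination against DMSO in the unpaired edgeR fit (20%, against 14.4% of all genes). The median log2 fold change was 0.47 over the 5 and 0.02 over all genes. Irs1, the insulin receptor substrate, had 104, 31 and 40 counts in A1005, A1129 and A1471 with DMSO and 603, 392 and 545 with the Combination, a log2 fold change of 2.94 (SE 0.70, adjusted p = 0.0219). Igf1r was at 0.20 (SE 0.30, adjusted p = 0.728) and Igf2r at −0.11 (SE 0.78, adjusted p = 0.952). With the replicate block Irs1, Irs2 and Insr were called, all higher (60%, against 54.8% of all genes), and Igf1r and Igf2r were not (adjusted p = 0.263 and 0.947).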

How the data were processed

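Tumoursphere RNA of 12 libraries was measured, and treatment and line were taken from the labels. The authors deposited raw counts, whole numbers of reads per gene. They sequenced on a NextSeq500 instrument and, per the labels, used bcl2fastq, STAR and HTSeq with mm10, with no versions given. The counting mode, strand and annotation release are not given in the sources used here. GENCODE vM21 (GRCm38) gave coordinates and exon lengths for 55480 of the 55573 genes.

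Low genes were removed by filterByExpr (at least 10 counts, 15 in total). After TMM scaling, edgeR 4.0.16 (R 4.3.3) was run as a quasi-likelihood test, adjusted after Benjamini-Hochberg over 13836 genes, with calls at 0.05. The treatment fit had no block, and the line fit had line and treatment terms. Sums of squares used log2 CPM with a prior count of 2. CPM and RPKM were computed here from the counts and the TMM library sizes. Intervals were exact (Poisson or conditional binomial, scipy 1.17.1).

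The cell line pairs the libraries. The 18 pairs of libraries of 1 line under different treatments deviated together from the treatment means (r = 0.766 to 0.962, median 0.863), and no libraries were identical. Nothing in the labels says that libraries of a line came from separate cultures, so p-values measure the spread between these libraries.

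The members and lists were chosen with earlier results of these data known. Named from the lists were neighbours of the members, Igf1r, Igf2r and up to 3 genes per list and comparison with the largest change past the threshold. Insr, Irs2, Peg10, Airn and Slc22a18 were named after their values were seen. Alternatives included a block by cell line, DESeq2 1.42.0, its size factors in edgeR, other filters, a minimum absolute log2 change of 1.5, a prior count of 0.5, only the libraries compared and leaving out each line. The fits were also tested on simulated data. A marker of the leukocyte list is not reported here.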

Additional observations from a re-analysis of the deposited data

How the results depend on the processing

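In the treatment comparisons, the number of members called was 0 without a block under every filter, normalization and tool tried, and with each line left out in turn (0 to 0). With the cell line as a replicate block it rose to 2 for the Combination against Crizotinib and changed no other call of a member. With the replicate block and no filter on low counts, chosen after seeing the data, it was 2 for the Combination against DMSO (Grb10 at adjusted p = 0.0133 and H19 at 0.0357) and 2 against Crizotinib, in fits that called 26.3% and 25.9% of the 28504 genes tested. With the replicate block and without A1005 it was 1 (H19) in each of these comparisons, and without A1129 it was 1 (Grb10) against Crizotinib. Without the filter, 2 members were called for any treatment difference (24.8% of all genes), and 4 (Cdkn1c, Grb10, H19 and Plagl1) for any line difference (38.8%) and for A1129 against A1005 (29.6%). A minimum of 10 counts in every library left 0 members to test, and so 0 called in the 3 line comparisons and for any line difference. The direction of H19 with PD173074 against DMSO turned to −0.043 without A1005 and was 0.041 without A1471. The direction of Grb10 with the Combination against PD173074 turned to −0.0040 without A1471, and to −0.043 with the block as well, and its departure from additivity turned to −0.025 with the block and without A1471. The cause of these changes was not tested beyond which libraries or genes each fit held. Without a block, log2 fold changes for the Combination against DMSO ran from 0.33 to 1.29 for Grb10 (adjusted p 0.819 to 0.992) and from 1.14 to 1.23 for H19 (0.815 to 0.889). Over all genes, the Combination against DMSO called 1990 genes without the block, 7578 with it and 3032 in DESeq2. Depth limits Igf2, Dlk1, Ndn, Meg3, Peg3, Mest and Cdkn1c to an upper bound or a few counts.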

Other observations

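Factors known to write, keep or remove imprints were read in these spheres. Of 14 such genes, 11 were tested, and 1 was called with the Combination against DMSO in the unpaired edgeR fit (9.09%, against 14.4% of all genes). Uhrf1, which brings the maintenance methyltransferase to newly copied DNA, had 2682, 2826 and 3378 counts in A1005, A1129 and A1471 with DMSO and 832, 441 and 403 with the Combination, a log2 fold change of −2.59 (SE 0.21, adjusted p = 0.000104). With each single inhibitor its counts were 2600 to 3584. With the replicate block 3 of the 11 were called higher and 4 lower (63.6%, against 54.8% of all genes), among them Dnmt1, the maintenance methyltransferase, at −0.78 (SE 0.17, adjusted p = 0.00336) and Dnmt3a, a de novo methyltransferase, at 0.81 (SE 0.17, adjusted p = 0.00294). Between lines, Dnmt3l, a cofactor of de novo methylation, had 59 to 96 counts in A1005, 9 to 38 in A1471 and at most 1 in A1129.

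Dcn, an extracellular matrix proteoglycan gene imprinted in the placenta, had 27, 76 and 1050 counts in A1005, A1129 and A1471 with DMSO, 98, 182 and 2389 with PD173074 and 129, 334 and 2717 with the Combination. With PD173074 against DMSO and the replicate block, 1 of the 29 other imprinted genes tested was called (3.45%, against 2.14% of all genes). Without the block 0 were called. The gene called was Dcn, with a log2 fold change of 1.34 (SE 0.14, edgeR adjusted p = 0.00379). The levels were higher in each line, and lines held 86.6% of its sum of squares.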
